A study of Mus musculus with 20 samples.

Results

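Long and short carbon nanotubes were compared in the diaphragm of mice 12 weeks after injection into the pleural cavity. The comparison used the 4 arrays titled NTL, from mice given long nanotubes, and the 4 titled NTS, from mice given short nanotubes, which are 8 of the 20 arrays of the series. The titles alone chose these arrays, and no measured value entered the choice. The question was which genes and functions of the tissue depend on nanotube length at an equal dose.

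All mice were female and of the C57Bl/6 strain, and were 8 weeks old when injected. NTL and NTS mice received 5 μg of nanotubes each, as 100 μL of a 50 μg/mL suspension in 0.5% BSA in saline. The remaining arrays came from mice given this vehicle alone (VC) or 25 μg of short (SFA) or long (LFA) amosite asbestos fibers, with 4 mice in each group. The short nanotubes were bought from a company and the long nanotubes were made in a university laboratory, both by vapor deposition, so that length cannot be told apart from any other property in which both preparations differ.

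The diaphragm is a sheet of skeletal muscle whose pleural face is covered by mesothelium, the flat epithelium that lines the chest cavity. Fluid, cells, and small particles leave the pleural space through openings that lead to lymphatic vessels, whereas long, stiff fibers do not pass and remain on the surface. Macrophages that cannot enclose a fiber of this kind release oxidants, proteases, and cytokines, a state known as frustrated phagocytosis, and persistent inflammation of the pleura with fibrosis is a known course after long-fiber asbestos.

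Each array held 59305 noncontrol spots for 55681 probes, and 36920 probes that exceeded background clearly on 4 or more of the 20 arrays were tested. A level is given throughout as the log2 signal relative to the 75th percentile of the array, so that 0 is the level of that percentile. The percentile ranged from 380 to 485 in NTS and from 530 to 991 in NTL, and 56.3% to 68.1% of the spots in NTS and 56.8% to 65.3% in NTL were well above background. Skeletal muscle markers, the check of the labeled tissue, had a mean level between 5.87 and 7.69 in all NTL and NTS mice. NTS replicates 3 and 4 stood apart before any comparison. They carried the most transcripts of liver, with a mean level of 22 liver genes of 7.58 and 7.84, against −0.20 and −1.54 in NTS replicates 1 and 2 and 2.15, −0.12, 3.59, and 3.22 in the 4 NTL mice. Both lay on a slide that held no NTL array, 3 of the 4 NTL arrays lay on a slide that held no NTS array, and only 1 slide held both groups (NTL replicate 1 with NTS replicates 1 and 2). Values with slide as a block are therefore given for each list, and values without NTS replicates 3 and 4 where they change a count by more than 1.5 times and by more than 1 gene. An index of the signal near the 5′ end of transcripts relative to that near the 3′ end, in log2 units, was −1.19 in NTS replicate 4 and −0.51 to −0.36 in the other NTS mice, and −1.27 to −0.63 in NTL. Its part in the results was not tested beyond a fit with the index as a covariate, in which 2064 instead of 980 probes were called lower.

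NTL differed from NTS in 2797 probes, called in limma when the change was 2-fold or more and the p, adjusted by Benjamini-Hochberg, was under 0.05. Of these, 1817 (4.92% of those tested) were higher in NTL and 980 (2.65%) were lower. With slide as a block, 769 probes were called, 675 higher (1.83%) and 94 lower (0.255%), and 750 of them were called in the same direction without it. Since only 1 slide held both nanotube groups, this fit drew the slide effects from all 5 groups. It called 0 probes when fitted to NTS and NTL alone, and 151 without NTL replicate 1. A test allowing unequal variances, the kind that the study used, called 399 probes without the block. With that test 70 of the 104 called genes named below lost their call, and these losses are not given gene by gene. In terms of genes, each represented by its brightest probe, 1164 of 18457 (6.31%) were higher in NTL and 457 (2.48%) were lower, and with slide as a block 421 (2.28%) and 31 (0.168%). The higher genes had a median log2 change of 1.74 and the lower genes of −1.39, while the median of all genes was −0.17. Changes of at least 3 on the log2 scale were seen in 121 higher and 10 lower genes. Every NTL array lay above every NTS array in 1864 (10.1%) of the 18396 genes with no missing value and below in 1667 (9.06%), and 1092 of the higher and 385 of the lower genes were among these. Within the shared slide, whose 3 arrays are among those by which the genes were called, the median difference was 1.69 in the higher and −1.33 in the lower genes.

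The lower genes were less stable than the higher genes. Without NTS replicates 3 and 4, the arrays with liver transcripts, 1184 genes were called higher and 1160 lower, and these held 885 of the 1164 higher but 251 of the 457 lower genes. The number of probes called lower was 3300 without NTS replicate 4 and 405 without NTS replicate 3. The scaling of the arrays moved the split as well, to 2249 higher and 604 lower probes with quantile normalization and to 1311 and 1257 with normexp background correction. Since whole tissue was measured, a fall in the number of cells of a type cannot be told apart from less RNA per cell.

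The largest measured rise was that of Calca, the gene of calcitonin and of the neuropeptide CGRP, which are made from it by alternative splicing. Both probes of the gene are shown because they read different transcripts. The first 30 bases of each 60-base probe are given 5′ to 3′ (build mm9, minus strand). The file assigns the first probe, at chr7:121775204-121775263, to transcript variant 2 and the second, at chr7:121776948-121777007, to variant 1.
Calca, variant 2: tattgtgcatcgtgttgtatgtgactctgt
Calca, variant 1: aagaatggtatctgaaatccccagtgggtg
The probe of variant 2 was at −2.63, −3.99, −3.35, and −4.26 in the 4 NTS mice and at 3.38, 4.01, 1.98, and 4.12 in the 4 NTL mice. All NTL mice thus lay far above all NTS mice, and the VC mean was −3.47, close to NTS. The log2 change was 6.93 ± 0.63 (SE, n = 4 per group), or 122-fold (limma adjusted p = 4.62e-06), and 6.48 with slide as a block. Over all alternative settings it ran from 4.94 to 7.40, so that the fold is not precise. The probe of variant 1 was also higher in NTL, by 2.95 ± 0.51 (limma adjusted p = 0.00146).

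Other genes of the calcitonin family were measured as well. Of 8 tested, 3 were higher and 1 lower in NTL. Calcb, which encodes the second CGRP peptide, was 3.06 ± 0.69 higher (limma adjusted p = 0.0100), with NTS between −5.61 and −1.60 and NTL between −1.75 and −0.02, so that the groups overlapped. Ramp3, a partner protein of the receptors, was higher by 1.31 and Ramp1, the partner that forms the CGRP receptor, was lower by a log2 change of −1.46 ± 0.34. Only Calca was still called with slide as a block (limma adjusted p = 0.107 for Calcb, 0.168 for Ramp3, and 0.0909 for Ramp1). Ramp3 also lost its call without any one of 6 arrays, and Calcb without NTS replicates 3 and 4 (limma adjusted p = 0.0859), where 1 gene of the family was called higher.

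Cxcl5, a chemokine that attracts neutrophils, followed Calca among the 12 genes with the largest measured rise. These 12 were called with and without the slide block, and were chosen so that NTL and NTS did not overlap. The order within these 12 is not certain, because the NTS signal of 5 of them was at or near background. It was well above background on 1 NTS array, where the 4 values ran from −6.99 to −3.57, and on all NTL arrays, from 0.15 to 1.56. The measured rise was 6.32 ± 0.73 (limma adjusted p = 4.58e-05), and 3.65 with normexp background correction, which compresses dim probes. Tff1, a secreted trefoil peptide of mucous epithelia, Fam162b, a gene of little known function, Olr1, a scavenger receptor for oxidized lipoproteins, and Slfn4, a Schlafen gene of myeloid cells, were not well above background in any NTS mouse and were so in every NTL mouse. Against the dimmest level that the arrays could separate from background, they were at least 17.1-fold, 14.4-fold, 11.2-fold, and 10.5-fold higher in NTL. These folds rest on the measured NTL means and make no allowance for their error. With normexp background correction the log2 changes of these 4 genes were smaller, at 2.25, 1.99, 1.73, and 1.61, and still called. Their measured means were −6.96 in NTS and −0.83 in NTL for Tff1, −6.82 and −1.09 for Fam162b, −7.00 and −1.44 for Olr1, and −6.66 and −1.54 for Slfn4. Tff1 had its lowest NTL value in replicate 3, at −3.02 against −0.57 to 0.48 in the others, which still lay above all NTS mice.

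Saa3, an acute-phase protein made in inflamed tissue, stood at 0.49, 0.12, 2.12, and −0.51 in NTS and at 5.37, 5.47, 5.53, and 6.13 in NTL, a change of 5.07 ± 0.57 (limma adjusted p = 3.47e-05). The NTL mice were close to each other and more than 3 log2 units above the highest NTS mouse. Col6a5, a chain of the collagen VI family, rose by 4.79 ± 0.77 (limma adjusted p = 0.000706). Probes of the immunoglobulin heavy-chain region on chromosome 12, named Igh-VJ558, LOC100505009, and LOC641221 in the file, rose by 5.63, 5.21, and 5.12, and since such segments share sequence, they may not be independent of each other.

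**Figure D1:**
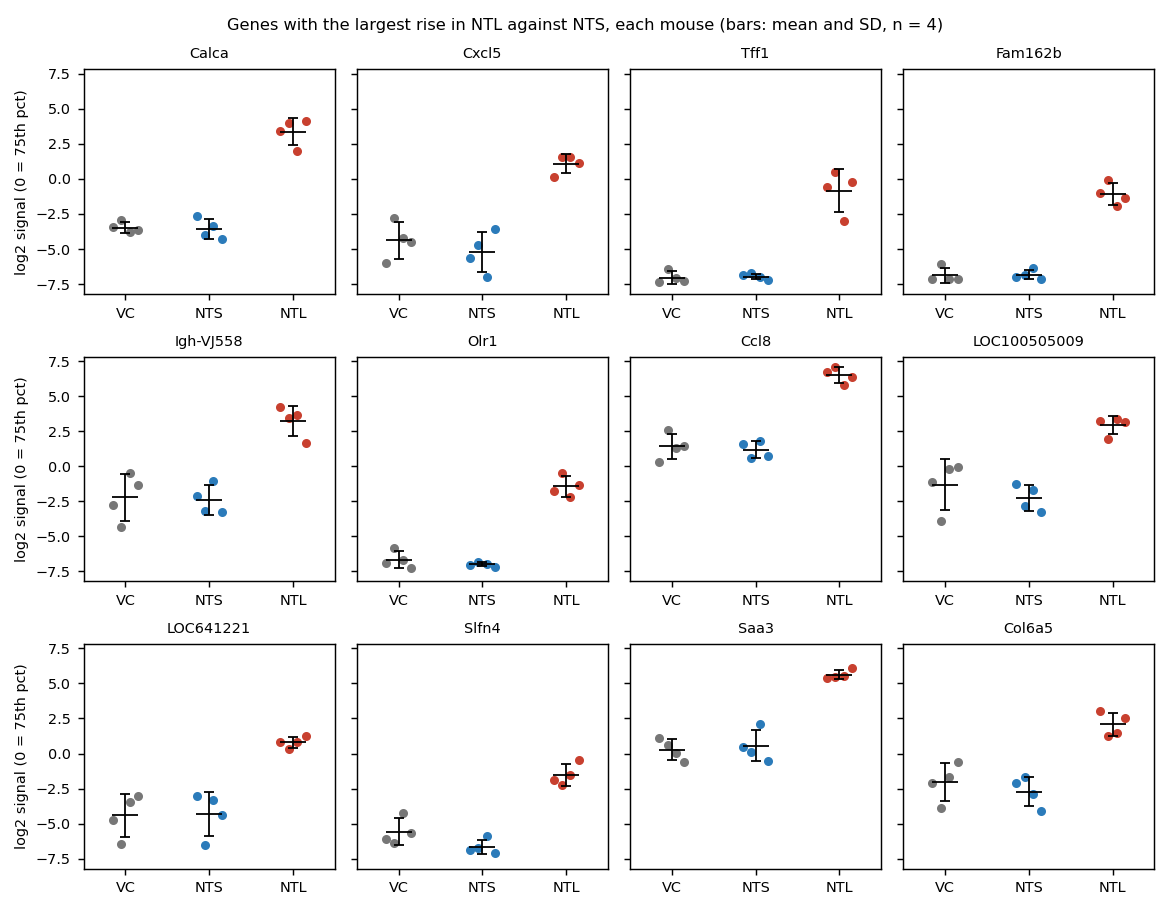
Log2 level relative to the 75th percentile of the array (y axis, 0 = that percentile) of the 12 genes with the largest rise in NTL against NTS, for each mouse of VC, NTS, and NTL, with bars for the mean and SD (n = 4). In every panel all 4 NTL mice lie above all NTS mice, which was a condition of the choice of these genes. Calca runs from 1.98 to 4.12 in NTL and from −4.26 to −2.63 in NTS.

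Chemokines, which guide leukocytes into tissue, were higher in NTL in most of the CC family. Of 17 CC and CX3C chemokines tested, 11 were higher and 2 lower in NTL (background 6.31% and 2.48%), with a median of 2.03, and 7 and 1 were called with slide as a block (background 2.28% and 0.168%). These shares of all genes are the background for the counts of every other list too. Without NTS replicates 3 and 4, 1184 instead of 1164 of all 18457 genes were higher and 1160 instead of 457 lower. Up to 3 called genes of each list were named on the condition that NTL and NTS did not overlap, so their separation is no separate result. Ccl8, a ligand for monocytes and T cells, was at 1.62, 0.56, 1.81, and 0.72 in NTS and at 6.75, 7.08, 5.82, and 6.38 in NTL. The groups were thus about 4 log2 units apart at their nearest, with a change of 5.33 ± 0.50 (limma adjusted p = 7.04e-06). Ccl17, a ligand of Ccr4, rose by 2.60, and Ccr4 itself, not well above background in any NTS mouse, was at least 2.22-fold higher in NTL (mean −6.39 in NTS and −3.78 in NTL, limma adjusted p = 0.00963). With normexp background correction the log2 change of Ccr4 was 0.17 and was not called.

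Several of these genes are neighbors on chromosome 11, in a cluster of monocyte chemoattractants. This interval was chosen after the values were seen and carries no test. From Ccl2 at chr11:81850650-81850709 through Ccl7, Ccl11, and Ccl12 to Ccl8 at chr11:81930108-81930167 (mm9, probe positions), 4 of the 5 genes were higher in NTL and 3 were so with slide as a block. Ccl2 rose by 2.81 ± 0.40, Ccl7 by 3.41 ± 0.53, and Ccl12 by 3.27 ± 0.60 (limma adjusted p = 0.000297, 0.000547, and 0.00226), and the call of Ccl12 was lost with the slide block (limma adjusted p = 0.0568). Ccl11, the eosinophil chemoattractant that lies between them, was at 0.95, 1.43, 0.85, and 1.31 in NTS and at 0.94, 2.51, 1.35, and 0.89 in NTL. Its groups overlapped, with a change of 0.29 ± 0.43 that was not called (limma adjusted p = 0.712).

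Of 14 CXC chemokines tested, 7 were higher and 0 lower, with 2 called under the slide block. Beside Cxcl5 these included Cxcl13, which attracts B cells, with NTS between −0.28 and 2.58 and NTL between 3.77 and 4.55, a rise of 3.08 ± 0.50 (limma adjusted p = 0.000756). Cxcl3, a neutrophil chemoattractant not well above background in any NTS mouse and so in 3 of 4 NTL mice, was at least 2.63-fold higher (means −6.87 and −3.54), although its call was lost with slide as a block (limma adjusted p = 0.0544) and with normexp, where the log2 change was 0.52. Among 17 chemokine receptors 7 were higher, 2 of them with slide as a block.

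Of 27 inflammatory cytokines and their receptors, 17 were higher and 0 lower in NTL (9 with slide as a block), with a median of 1.52. Il6, a cytokine that activates STAT3, was well above background on 1 NTS array and on all NTL arrays, with −5.86, −5.94, −5.51, and −4.59 in NTS and −2.62, −0.29, −1.99, and −1.47 in NTL. The NTL values were spread more widely but did not overlap NTS. The measured change, 3.88 ± 0.50 (limma adjusted p = 0.000128), is taken against NTS signals that were mostly not above background, and it was 1.41 with normexp, still called. Il1r2, the decoy receptor of IL-1, rose by 3.20 ± 0.66, and Il10, an anti-inflammatory cytokine below the background threshold in all NTS mice, was at least 2.44-fold higher (means −6.44 and −3.65), with a log2 change of 0.18 and no call with normexp. Il1b was 2.76 ± 0.72 higher (limma adjusted p = 0.0230), from −4.38 to −0.62 in NTS and from −1.27 to 0.97 in NTL. Its groups overlapped through NTS replicate 4, and its call was lost with the slide block (limma adjusted p = 0.0604) and without any one of 4 arrays (NTS replicate 1 or 2, NTL replicate 2 or 3).

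Receptors by which phagocytes sense and bind particles, microbes, and modified lipids rose as broadly. Of 26 pattern and scavenger receptors, 18 were higher and 1 lower (13 and 0 with slide as a block), with a median of 2.05. Marco, a scavenger receptor of macrophages that binds inhaled particles, was at 1.76, 0.50, 0.86, and 1.99 in NTS and at 4.64, 5.86, 6.24, and 6.11 in NTL. All NTL mice lay above all NTS mice, with a change of 4.44 ± 0.46 (limma adjusted p = 1.81e-05). Msr1, the class A scavenger receptor, rose by 2.91 ± 0.49 (limma adjusted p = 0.00109), and NTS replicate 4, at −0.85, lay above the other NTS mice, at −4.00 to −2.86.

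A second run of neighboring genes, likewise chosen after their values were seen, was that of C-type lectins on chromosome 6 between the Clec4a1 probe at chr6:122884578-122884637 and the Clec4e probe at chr6:123232878-123232937 (mm9). In this run 6 of 7 tested genes were higher in NTL, 5 of them with slide as a block. The 3 genes at its far end, all receptors of myeloid cells that signal through an ITAM adaptor, moved most, with changes of 4.07 ± 0.52 for Clec4n, 4.03 ± 0.47 for Clec4d, and 4.58 ± 0.45 for Clec4e. Clec4e, also known as Mincle, a receptor for glycolipids and for material of dead cells, was at −4.23, −4.90, −4.15, and −4.54 in NTS and at −0.55, 0.02, 1.18, and −0.13 in NTL. The NTS mice were tightly grouped and all NTL mice stood more than 3 log2 units above them (limma adjusted p = 9.08e-06). Clec4a1 and Clec4a3 rose by 2.22 and 2.68, and Clec4b1 by 1.64 with a call that was lost with slide as a block (limma adjusted p = 0.153) and without NTL replicate 1. Clec4a4 changed by 1.36 ± 0.63 and was not called (limma adjusted p = 0.189), and it changed sign, to −0.17, with normexp background correction.

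Of 15 Fc receptors and ITAM adaptors, 10 were higher and 0 lower, 5 of them with slide as a block. Trem2, a lipid receptor of macrophages that pairs with the adaptor Tyrobp, was at −0.17, −0.49, 0.45, and −0.05 in NTS and at 4.14, 4.51, 4.59, and 4.16 in NTL, and neither group spread over 1 log2 unit. Its change was 4.42 ± 0.39 (limma adjusted p = 3.91e-06) and 4.51 with slide as a block. The immunoglobulin receptors Fcgr1 and Fcgr4 rose by 2.68 ± 0.52 and 2.67 ± 0.53 (limma adjusted p = 0.00309 and 0.00368).

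Markers of macrophages themselves were higher in 11 of 15 genes, 10 of them with slide as a block, with a median of 2.17 and none lower. Cd68, the lysosomal protein used to stain macrophages, was at 2.5, 1.97, 2.45, and 2.32 in NTS and at 4.23, 4.62, 5.73, and 4.17 in NTL, a rise of 2.38 ± 0.34 (limma adjusted p = 0.000287). NTL replicate 3 was the highest here. The mean level of the 15 genes ran from 0.98 to 1.53 in NTS and from 3.03 to 3.28 in NTL, and from 1.05 to 1.53 in VC. The part that the number of macrophages had in the changes of other groups of genes was not tested.

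Genes of alternative macrophage activation, the state induced by IL-4 and IL-13, were higher in 15 of 17 genes tested, 7 of them with slide as a block. Chil3 and Chil4 are chitinase-like proteins of such macrophages. Chil4 was not well above background in any NTS mouse and was at least 7.43-fold higher in NTL (means −5.29 and −2.04, limma adjusted p = 0.000562). With normexp its log2 change was 1.12, still called. Chil3 rose by 3.98 ± 0.86. It ran from −2.13 to 0.21 in NTS and was at 3.43, 3.76, 0.60, and 3.04 in NTL, so that NTL replicate 3 lay close to the highest NTS mouse, and its call was lost with slide as a block (limma adjusted p = 0.0766). Egr2, a transcription factor of alternatively activated macrophages and of Schwann cells, rose by 2.42 ± 0.35 (limma adjusted p = 0.000344).

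Genes of lysosomes and of lipid handling were measured next. Of 30 lysosomal proteases and hydrolases, 8 were higher (7 with slide as a block) with a median of 0.73, led by Ctss, the cathepsin that trims the MHC class II chaperone, at 2.75 ± 0.36 (limma adjusted p = 0.000168). Of 18 lipid-handling macrophage genes 6 were higher, 5 with slide as a block, with a median of 1.27. Lgals3, the galectin of phagocytes, rose by 2.69 ± 0.44. Gpnmb, a glycoprotein of lipid-laden and fused macrophages, was at −0.29, −0.98, −1.76, and −2.78 in NTS and at 1.5, 1.52, 4.62, and 1.30 in NTL. NTL replicate 3 stood apart here, and the change of 3.69 ± 0.78 (limma adjusted p = 0.00618) lost its call with the slide block (0.0888) and without NTS replicates 3 and 4 (0.0510).

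Of 22 genes of multinucleated giant cells and osteoclasts, 7 were higher and 0 lower, 4 of them with slide as a block, and the median was 0.48. Tnfsf11, the cytokine RANKL that drives osteoclast formation, was below the background threshold in all NTS mice and at least 3.48-fold higher in NTL (means −6.20 and −3.13, limma adjusted p = 0.00281), with a log2 change of 0.47 and no call with normexp. Atp6v0d2, a proton pump subunit needed for cell fusion, was at −4.01, −5.39, −1.87, and −0.98 in NTS and at −0.76, 0.09, 1.39, and −0.80 in NTL. NTS replicates 3 and 4 were thus close to NTL, and the change of 3.04 ± 0.82 (limma adjusted p = 0.0272) was not called without any one of 4 arrays (NTS replicate 1 or 2, NTL replicate 2 or 3). Cd44, the hyaluronan receptor, rose by 2.20 ± 0.32, and Dcstamp, a membrane protein of fusing macrophages, by 1.87 ± 0.44 with the call lost under the slide block (limma adjusted p = 0.115) and with normexp.

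Of 12 genes of the NADPH oxidase and the oxidative burst, 6 were higher and 1 lower (4 and 0 with slide as a block). Ncf1, the p47 subunit of the phagocyte oxidase, rose by 2.78 ± 0.41 (limma adjusted p = 0.000336), from −1.57 to −1.04 in NTS to 1.12 to 1.80 in NTL. The targets of NRF2, which protect cells against oxidants, did not follow. Of 20 tested, 1 was higher and 1 lower (6.31% and 2.48% of all genes were), and neither was so with the slide block. Hmox1, the heme oxygenase, rose by 1.04 ± 0.26 and its call was lost under the slide block (limma adjusted p = 0.0909) and without NTS replicate 1 or 2 or NTL replicate 2. Gstm1, a glutathione transferase that liver expresses strongly, was at 5.15, 4.85, 7.00, and 7.19 in NTS, with the highest values in both arrays with the most liver transcripts, and between 3.67 and 4.68 in NTL. Gstm1, which changed by −1.88 ± 0.58 (limma adjusted p = 0.0494), was not called without those arrays (0.350), with the slide block (0.337), or without any one of 6 arrays.

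Complement components were higher in 8 of 21 genes, 3 of them with slide as a block, and in 12 without NTS replicates 3 and 4, where the median was 1.51 instead of 0.71. Several complement genes are made in the liver, and without NTS replicates 3 and 4 the liver list was higher in NTL, with a median of 3.28. The part of liver transcripts in the complement counts was not tested. C5ar1, the receptor of the fragment C5a on phagocytes, was at −2.61, −3.22, −2.65, and −3.58 in NTS and at −0.15, 0.19, 0.03, and 0.05 in NTL. The NTL mice were nearly equal, and the change was 3.04 ± 0.32 (limma adjusted p = 1.90e-05). C1qb, a chain of C1q made by macrophages, rose by 2.17 ± 0.46, with the call lost under the slide block (limma adjusted p = 0.111).

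Plasma cells, the antibody-secreting cells, had 8 of 11 markers higher and 0 lower, 5 of them with slide as a block, with a list median of 2.34. Jchain, the joining chain of IgM and IgA, was at 4.26, 2.31, 4.45, and 3.34 in NTS and at 7.60, 8.11, 7.39, and 7.59 in NTL, a change of 4.08 ± 0.44 (limma adjusted p = 2.20e-05). Derl3, of the machinery that clears misfolded secretory proteins, rose by 3.48 ± 0.33 (limma adjusted p = 7.35e-06), Mzb1, an antibody chaperone of the endoplasmic reticulum, by 3.47 ± 0.44, and Tnfrsf17, the survival receptor BCMA, by 3.53 ± 0.64. Tnfrsf17 was at 2.11 in NTL replicate 2 and at 0.13 to 0.27 in the other NTL mice, and all lay above NTS. Of 15 B cell markers 3 were higher, 1 of them with slide as a block, among them Pou2af1, a coactivator of immunoglobulin genes, at 3.02 ± 0.53 (limma adjusted p = 0.00165).

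Of 13 T cell markers 3 were higher, and 0 with slide as a block, with a median of 1.17 and 10 of 13 changes above 0. Foxp3, the factor that defines regulatory T cells, was at −3.10, −3.87, −4.08, and −5.06 in NTS and at −1.76, −1.58, −1.99, and −1.40 in NTL, a change of 2.35 ± 0.48 (limma adjusted p = 0.00525, and 0.0840 with slide as a block), and 0.98 without a call with normexp. Icos, a costimulatory receptor, was higher by 1.83, with NTL replicate 2 at 0.47 against −1.0 to −0.75 in the others, and its call was lost with slide as a block (limma adjusted p = 0.120) and without any one of 4 arrays (NTS replicate 1, 2, or 3, or NTL replicate 2). Unlike most of the list, Cd3e, a chain of the T cell receptor complex, and Cd4 had changes below 0, of −0.18 ± 0.45 and −0.52 ± 0.49. Their groups overlapped, and neither was called (limma adjusted p = 0.835 and 0.536). The groups of NK and cytotoxic lymphocytes, mast cells, and dendritic cells had 1 of 10, 2 of 9, and 4 of 10 markers higher and 0 lower, and 0, 2, and 0 with slide as a block. Over all genes 6.31% were higher. Without NTS replicates 3 and 4, 3 of the 10 markers of NK and cytotoxic lymphocytes were higher.

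Genes of MHC class II presentation were higher in 6 of 14, and in 1, Ctss, with slide as a block. Of 25 interferon-stimulated genes 9 were higher and 0 lower, 4 of them with slide as a block, and the median was 1.01. Without NTS replicate 4, 14 were higher, where 2136 instead of 1817 of all 36920 probes were. Mx1, an antiviral GTPase, rose by 3.03 ± 0.61 and Oas2, an enzyme that activates RNase L, by 2.23 ± 0.38 (limma adjusted p = 0.00457 and 0.00122). Neutrophil markers were higher in 0 of 14 and lower in 0, with or without slide as a block, with 13 of 14 changes above 0 and a median of 0.58. S100a8, the abundant calgranulin of neutrophils, was at 1.63, 1.25, 1.80, and 2.56 in NTS and at 1.56, 3.21, 2.66, and 2.27 in NTL, with overlapping groups (log2 change 0.62 ± 0.75, limma adjusted p = 0.642).

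**Figure D2:**
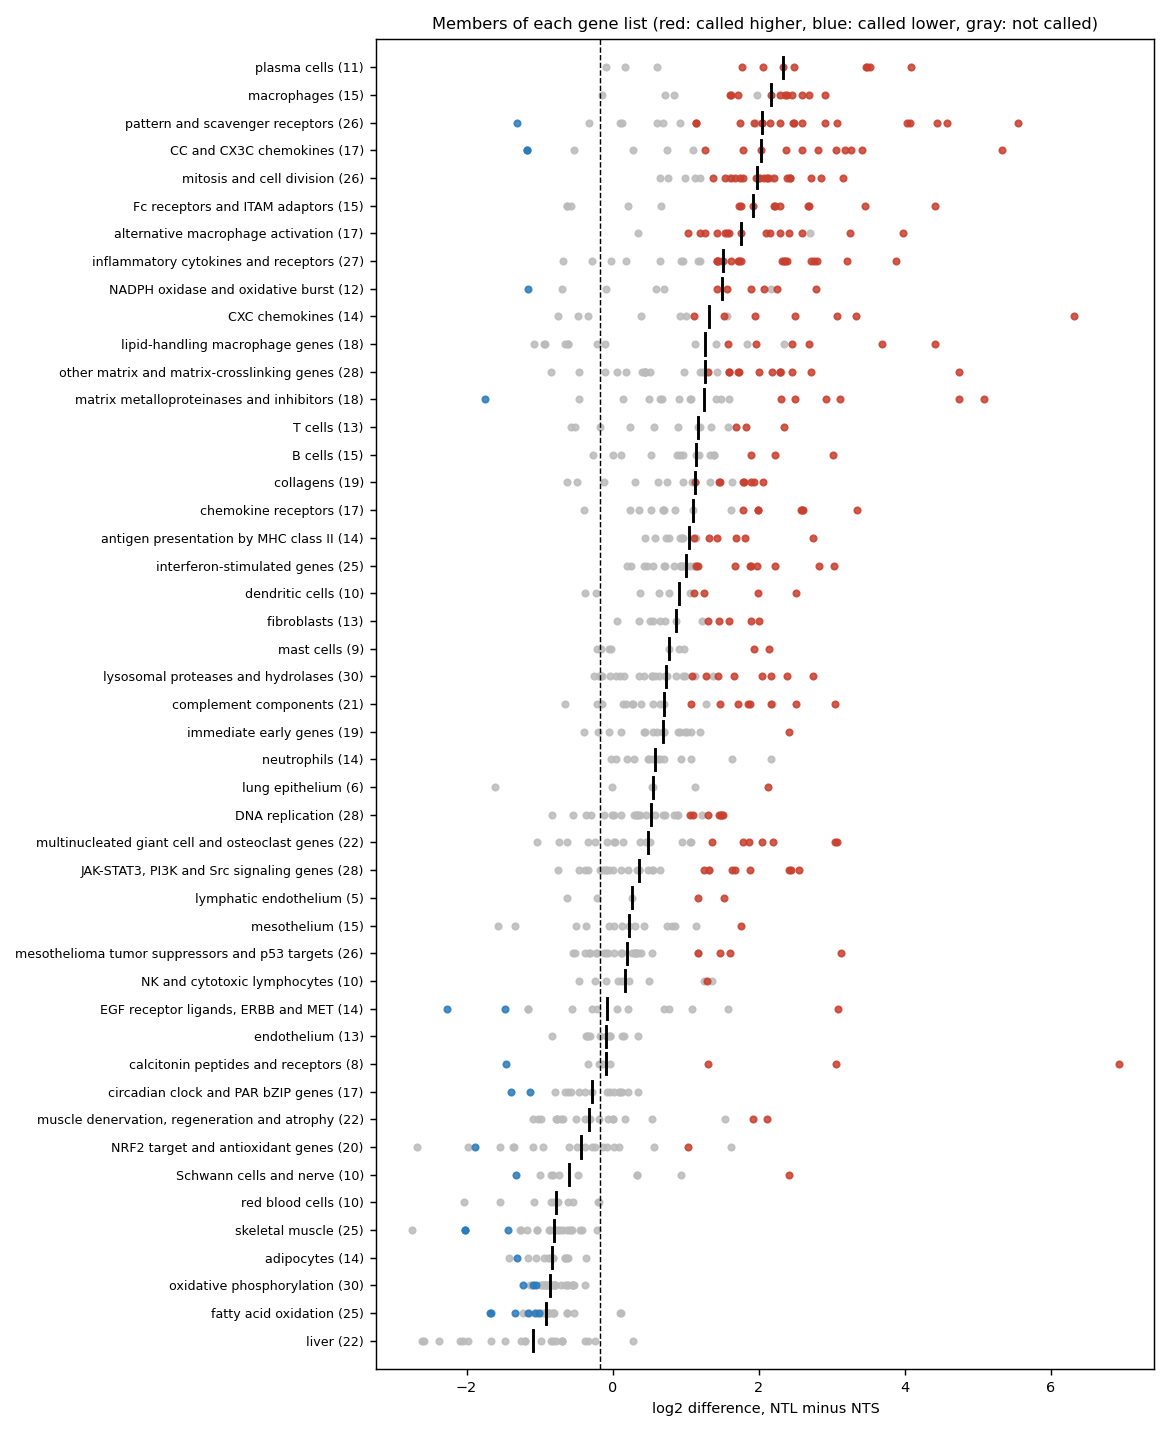
Log2 difference between NTL and NTS (x axis) of every tested gene in each of 47 lists (y axis, number tested in parentheses), with called genes in red (higher) and blue (lower), others in gray, a black bar for the list median, and a dashed line for the median of all genes, −0.17. The medians of plasma cells, macrophages, and pattern and scavenger receptors are 2.34, 2.17, and 2.05, and those of oxidative phosphorylation and fatty acid oxidation −0.86 and −0.91. That of liver, −1.09, turns to 3.28 without NTS replicates 3 and 4.

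Extracellular matrix genes were also higher in NTL, though fewer calls held with slide as a block. Collagens were higher in 8 of 19 genes, in 1 with slide as a block, and in 4 without NTS replicates 3 and 4, with a median of 1.13 and none lower. Col3a1, a fibrillar collagen of healing tissue, was at 5.63, 5.76, 4.95, and 5.95 in NTS and at 7.56, 7.93, 7.03, and 7.51 in NTL. The change was 1.94 ± 0.32 (limma adjusted p = 0.000942), and 1.97 with slide as a block. Col1a1, the main chain of collagen I, rose by 1.89 ± 0.38 and Col12a1, a fibril-associated collagen, by 2.06 ± 0.56, and both calls were lost under the slide block (limma adjusted p = 0.0904 and 0.244). That of Col12a1 was also lost without any one of 4 arrays. The mean level of the 19 collagens was 2.49 in NTL replicate 3 and 3.14 to 3.24 in the other NTL mice, against 2.36 and 2.25 in NTS replicates 1 and 2 and 1.67 and 1.65 in NTS replicates 3 and 4, the arrays with liver transcripts.

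Of 28 other matrix and crosslinking genes 12 were higher and 0 lower, 3 of them with slide as a block, and of 18 matrix metalloproteinases and their inhibitors 6 were higher and 1 lower (4 and 0). Timp1, the inhibitor induced in fibrosis, was at 0.33, 0.14, 0.53, and 0.26 in NTS and at 5.43, 5.97, 3.53, and 5.31 in NTL. The NTS mice lay close to each other, and even the lowest NTL mouse, replicate 3, was far above them (log2 change 4.74 ± 0.55, limma adjusted p = 4.85e-05). Mmp12, the macrophage elastase, was not well above background in any NTS mouse and was at −1.46, −2.03, 1.92, and −2.44 in NTL, at least 15.3-fold higher (mean −6.09 in NTS, limma adjusted p = 0.0115), with the call lost under the slide block (0.0680) and with normexp. Adam8, a sheddase of leukocytes, rose by 3.12 ± 0.37, Lox, which crosslinks collagen, by 2.71 ± 0.46, and Vcan, a large proteoglycan, by 2.46 ± 0.43. Fibroblast markers were higher in 5 of 13 genes, and in 0 with slide as a block.

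Genes of mitosis and cell division were higher in 19 of 26 tested and lower in 0, with a median of 1.98, and 13 were called with slide as a block. Every one of the 26 had a change above 0, and in 20 every NTL mouse lay above every NTS mouse (10.1% of all genes). Bub1, a kinase of the spindle checkpoint, was at −5.96, −6.23, −5.34, and −4.47 in NTS, above background in 1 mouse, and at −3.08, −1.85, −3.48, and −2.73 in NTL, where it was above background in all. The change was 2.71 ± 0.48 (limma adjusted p = 0.00156). Pbk and Melk, kinases of dividing cells, rose by 3.16 ± 0.54 and 2.85 ± 0.51, and Top2a, the topoisomerase that untangles chromosomes, was 2.43 ± 0.61 higher but lost its call with slide as a block (limma adjusted p = 0.209) and without NTL replicate 1 or 4. With normexp background correction Bub1, Melk, and Top2a had log2 changes of 0.54, 0.98, and 0.97 and were not called. Genes of DNA replication were higher in 7 of 28, 3 of them with slide as a block, with a median of 0.52, among them Rrm2, a subunit of ribonucleotide reductase, and Cdc6, a loader of the replicative helicase, at 1.49 each, and Cdc6 was at 0.25 and not called with normexp.

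**Figure D3:**
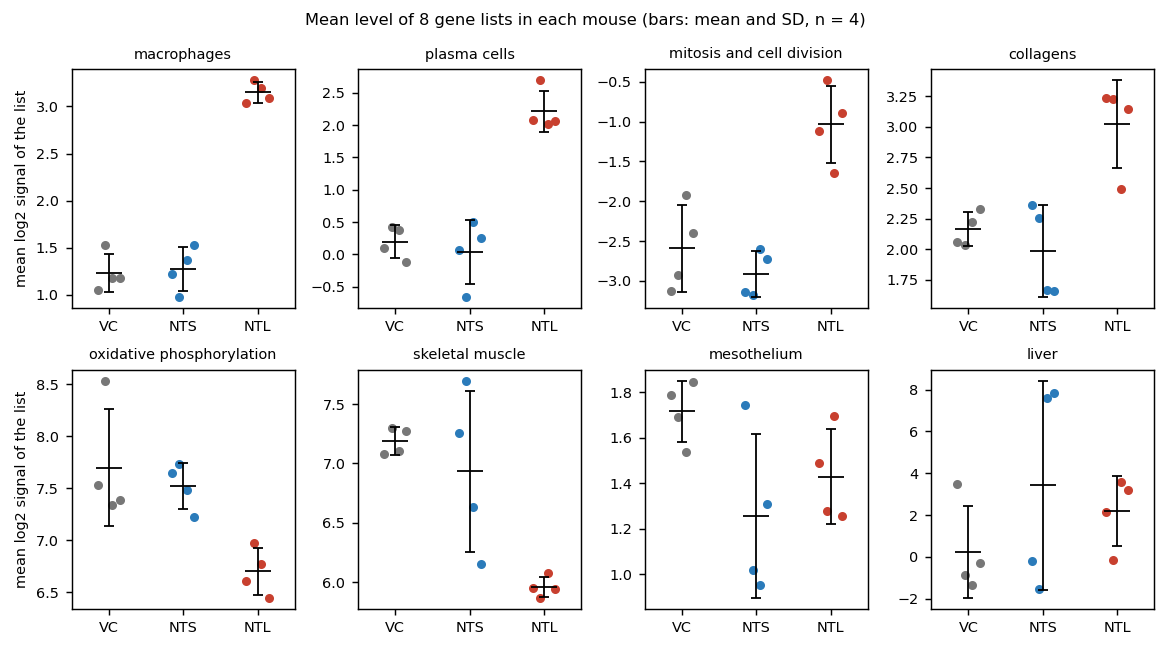
Mean log2 level of the tested genes of 8 lists (y axes, which differ between panels and do not start at 0) in each mouse of VC, NTS, and NTL, with bars for the mean and SD (n = 4). All NTL mice lie above all NTS mice for macrophages, plasma cells, mitosis, and collagens and below them for oxidative phosphorylation and skeletal muscle, while mesothelium overlaps and liver runs from −1.54 to 7.84 in NTS.

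Genes that the study follows in the tissue were considered with the lists to which they belong. Of 26 mesothelioma tumor suppressors and p53 targets, 4 were higher in NTL, 2 of them with slide as a block, and 0 lower, with a median of 0.20. Cdkn2a, the locus of the cell cycle inhibitors p16 and p19Arf, was at −2.11, −2.82, −1.12, and −3.08 in NTS and at 0.53, 1.38, 0.25, and 1.18 in NTL. All NTL mice lay above all NTS mice, with a change of 3.12 ± 0.45 (limma adjusted p = 0.000292), 2.69 with slide as a block and 3.0 within the shared slide, and both of its probes were called higher. Nf2 changed by −0.09 ± 0.33 and Bap1 by −0.38 ± 0.20, with overlapping groups, and neither was called (limma adjusted p = 0.885 and 0.241). Cdkn1a, the p53 target p21, was higher by 1.16 and Zmat3, another p53 target, by 1.47, and the call of Cdkn1a was lost with slide as a block (limma adjusted p = 0.129) and without any one of 6 arrays.

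Of 28 genes of JAK-STAT3, PI3K, and Src signaling, 8 were higher and 0 lower, 6 of them with slide as a block, and the 3 that rose most are forms expressed by leukocytes. Pik3cg, the catalytic gamma subunit of PI3K, was at −2.80, −3.48, −3.25, and −3.05 in NTS and at −0.67, −0.72, −0.95, and −0.58 in NTL, a change of 2.41 ± 0.43 (limma adjusted p = 0.00183). Pik3r5, its regulatory subunit, rose by 2.56 ± 0.29 and Fgr, a Src-family kinase of myeloid cells, by 2.45 ± 0.39. Stat3 was at 3.56, 3.32, 3.58, and 3.78 in NTS and at 3.99, 4.43, 3.45, and 4.30 in NTL. Its groups overlapped through NTL replicate 3, and the change of 0.48 ± 0.25 was not called (limma adjusted p = 0.237). Of 14 genes of the EGF receptor family, its ligands, and MET, 1 was higher and 2 lower (6.31% and 2.48% of all genes were), 0 with slide as a block, and 3 higher and 0 lower without NTS replicates 3 and 4. Ereg, the ligand epiregulin, was 3.09 ± 0.83 higher (limma adjusted p = 0.0280, and 0.0888 with the slide block), and Erbb3, the receptor without kinase activity, was not well above background in any NTL mouse and was at least 2.03-fold lower (means −4.32 in NTS and −6.59 in NTL, limma adjusted p = 0.0449), a call lost with the slide block (0.217). Ereg was not called without any one of 6 arrays, and Erbb3 without any one of 6, and with normexp neither was called.

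Mesothelial markers differed little as a list. Of 15 tested, 1 was higher, near the 6.31% of all genes, and 0 with slide as a block, with a median of 0.22. The 1 called was Wt1, a transcription factor of mesothelium, at 2.80, 1.51, 1.07, and 2.19 in NTS and at 3.36, 4.38, 3.37, and 3.47 in NTL. Its change was 1.75 ± 0.40 (limma adjusted p = 0.0105) and its call was lost with the slide block (0.0655), and the VC mean of 2.95 lay between both groups. Msln, the surface protein mesothelin, was between 4.06 and 5.30 in NTS and between 4.54 and 5.17 in NTL, with a change of 0.22 ± 0.34 (limma adjusted p = 0.722) that turned to −0.05 without NTS replicates 3 and 4. Of 13 endothelial markers 0 were called in either direction, with or without slide as a block, with a median of −0.08. Of 5 lymphatic markers 2 were higher, 1 with slide as a block. Lyve1, the hyaluronan receptor of lymphatic vessels and of some macrophages, was 1.18 ± 0.33 higher and lost its call with the slide block (limma adjusted p = 0.100) and without any one of 5 arrays.

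Lower levels in NTL were spread over many genes of muscle metabolism, each by a small amount. For oxidative phosphorylation, the mitochondrial respiratory chain and ATP synthase, all 30 genes had a change below 0, with a median of −0.86 against −0.17 for all genes. Of these, 3 were called lower, 0 with slide as a block, and 8 without NTS replicates 3 and 4 or without replicate 4 alone. Of all 18457 genes 457 were lower, and 1160 without NTS replicates 3 and 4. Without replicate 4 alone, 3300 instead of 980 of all probes were lower. In 22 of the 30 genes of oxidative phosphorylation every NTL mouse lay below every NTS mouse (9.06% of all genes). The mean level of the 30 genes ran from 7.23 to 7.74 in NTS and from 6.44 to 6.97 in NTL. Cox7a1, the muscle form of a cytochrome oxidase subunit, was at 9.28, 9.35, 9.26, and 8.82 in NTS and at 7.70, 8.46, 8.06, and 7.57 in NTL. Its change of −1.23 ± 0.35 (limma adjusted p = 0.0362) was lost with slide as a block (0.267) and without any one of 6 arrays.

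Fatty acid oxidation, the main route by which muscle burns lipid, was lower in 6 of 25 genes and higher in 0, with a median of −0.91, and in 1 with slide as a block. Eci1, an isomerase that this pathway needs for unsaturated fatty acids, was at 7.16, 6.98, 6.77, and 6.39 in NTS and at 5.21, 5.47, 5.94, and 5.31 in NTL, a change of −1.34 ± 0.25 (limma adjusted p = 0.00268, and 0.0392 with slide as a block). Pdk4, the kinase that spares glucose by blocking pyruvate oxidation, was lower by a log2 change of −1.68 ± 0.37, and its call was lost under the slide block (limma adjusted p = 0.106). For all 25 genes the mean level lay between 5.16 and 5.71 in NTS and between 4.47 and 4.80 in NTL.

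Of 25 skeletal muscle markers 3 were lower and 0 higher, 0 with slide as a block, with a median of −0.80. Without NTS replicates 3 and 4, 13 were lower, where 1160 instead of 457 of all 18457 genes were. The 3 called with all arrays were Actn3, Pvalb, and Tnnt3, which belong to fast muscle fibers. Pvalb, the calcium buffer parvalbumin, was at 7.77, 8.57, 7.40, and 6.65 in NTS and at 4.92, 5.56, 6.68, and 5.14 in NTL, so that the groups overlapped, and its change of −2.02 ± 0.44 (limma adjusted p = 0.00760) lost its call with the slide block (0.0875). Actn3 and Tnnt3 were lower by log2 changes of −2.02 ± 0.57 and −1.44 ± 0.39, and lost their calls with the slide block and without any one of 5 arrays each. Myh4, the myosin of the fastest fibers, was at 7.36, 7.53, 4.20, and 5.83 in NTS and at 4.24, 2.79, 5.56, and 1.35 in NTL, and its change of −2.75 ± 0.86 was not called (limma adjusted p = 0.0535). The mean of the 25 markers was 7.26 and 7.69 in NTS replicates 1 and 2 but 6.63 and 6.15 in replicates 3 and 4, the arrays with liver transcripts, and 5.87 to 6.07 in NTL.

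These lower levels depend on how arrays are scaled. Quantile normalization moved the median change of all probes from −0.25 to −0.04, and the list medians to −0.26 for oxidative phosphorylation, −0.47 for fatty acid oxidation, and −0.20 for skeletal muscle, and 604 instead of 980 probes were then called lower. The medians of the higher lists moved up, to 2.46 for macrophages and 2.07 for mitosis. Of 22 genes of denervation, regeneration, and atrophy, 2 were higher (6.31% of all genes were), 0 with slide as a block, and 0 lower. Without NTS replicates 3 and 4, 5 were lower, where 1160 of all 18457 genes were. Ncam1, the adhesion molecule that denervated fibers express, was at 1.94, 2.20, −0.22, and 1.90 in NTL and between −0.99 and −0.32 in NTS (log2 change 2.11 ± 0.49, limma adjusted p = 0.0116, and 0.138 with the slide block), and only 1 of its 3 probes was called. Among the other lists, read against the 6.31% of all genes called higher and 2.48% called lower, 2 of 17 circadian clock genes and 1 of 14 adipocyte markers were lower, 1 of 19 immediate early genes, Egr2, was higher, and 1 of 10 Schwann cell markers was lower and 1, again Egr2, higher. Without NTS replicates 3 and 4, 4 of the Schwann cell markers were lower, where 1160 of all genes were. Without replicate 4 alone 3 immediate early genes were higher, where 2136 instead of 1817 of all probes were. Of 6 lung markers 1 was higher, and of 10 red cell markers 0 were called. With slide as a block, Egr2 alone was still called among these other lists.

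Liver genes showed what NTS replicates 3 and 4 do to a list. Of 22 tested, 0 were called in either direction, with or without slide as a block. The median change was −1.09, but 1.45 with slide as a block and 3.28 without NTS replicates 3 and 4. Alb, serum albumin, was at 0.73, −0.67, 10.14, and 9.82 in NTS and at 5.42, 2.11, 7.16, and 6.44 in NTL. Its change of 0.28 ± 2.97 (limma adjusted p = 0.963) had no stable direction.

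The 8 lower genes with the largest change that were also called with slide as a block, and whose groups did not overlap, held 5 that rest on repeat sequences. Hoxc9, a homeobox gene of posterior identity, was at −1.45, −3.13, −4.24, and −3.31 in NTS and at −5.19, −7.11, −7.01, and −7.31 in NTL, with a change of −3.62 ± 0.55 (limma adjusted p = 0.000498). It was well above background in only 1 NTL mouse, so that its size and rank rest on signals at background, and it was −1.44 with normexp, still called. Cytl1, a small secreted protein of cartilage and blood progenitors, was at 4.06, 1.53, 3.31, and 2.06 in NTS and between −1.16 and −0.40 in NTL, a change of −3.56 ± 0.55 (limma adjusted p = 0.000565), and the VC mean of 0.32 lay between both groups. Pdzd9 was lower by a log2 change of −2.25 ± 0.40. The other 5, 4933405E24Rik, Sox5, Cplx2, Vash1, and 5730419F03Rik, were read by probes that hold a long run of the purine triplet GGA.

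These runs are shown because the genes cannot be read without them. Each line gives 30 bases of a 60-base probe, 5′ to 3′ as on the probe, and capitals mark whole copies of the repeated triplet in a run.
Sox5: gaaGAGGAGGAGGAGGAGGAGGAGGAGgaa
Cplx2: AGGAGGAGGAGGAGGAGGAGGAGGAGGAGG
Vash1: GAGGAGGAGGAGGAGGAGGAGGAGGAGGAG
4933405E24Rik: cGAGGAGGAGGAGGAGtgatatgtgattaa
5730419F03Rik: tactgaagaAGGAGGAGGAGGagttaattt
Complementary runs, of the pyrimidine triplet TCC, were on probes that rose.
BC051019: tatgttCTCCTCCTCCTCCTCCTCttccga
Lin52: tctgcaacaCCTCCTCCTCCTatcatccta
U2af1l4: acacaggaaCCTCCTCCTCCTgtccctcct
For comparison, a probe of Cplx2 that holds no such run has the following sequence.
Cplx2, other probe: tccccactttgtatgatgcaaatgctaaga

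The repeat probe named for Sox5, a transcription factor of cartilage and neurons, was at 5.12, 4.99, 5.16, and 6.43 in NTS and at 2.36, 2.75, 1.78, and 2.88 in NTL, a change of −2.98 ± 0.44 (limma adjusted p = 0.000336). The repeat probes shown above for Cplx2, a protein of synaptic vesicles, and Vash1, an inhibitor of vessel growth, were lower too, with 5.40, 5.15, 5.14, and 6.38 in NTS and 2.85, 3.06, 2.02, and 3.12 in NTL for Cplx2. Their changes were −2.76 ± 0.41 and −2.72 ± 0.42. The probe of Cplx2 without a run was between −0.72 and 0.44 in NTS and between −0.31 and 0.41 in NTL, and its change of 0.07 ± 0.26 was not called (limma adjusted p = 0.892). The file places this probe at chr13:54485200-54485259 and the repeat probe shown at chr13:108816800-108816859 (mm9). It names 2 more repeat probes for Cplx2, which were lower as well, by log2 changes of −3.36 ± 0.49 for one at chr13:54481316-54481375, near the probe without a run, and −3.07 ± 0.44 for one on chromosome 5.

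All tested probes with at least 4 copies in a row of GGA, in any of its frames and on the strand of the probe, were then counted. This was done after the values had been seen, and no test was made. They were 40 of 36920 probes (0.108%), and 31 of them (77.5%) were lower in NTL and 2 were higher, where 2.65% of all probes were lower. Their median log2 change was −2.67, −2.16 with slide as a block and −2.39 within the shared slide. With slide as a block 21 were lower, which is 22.3% of the 94 probes called lower there. Of 9 probes with 4 copies of TCC, 8 (88.9%) were higher and 0 lower, with a median of 2.91, and 5 were higher with slide as a block.

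The purine probes were lower on all NTL arrays than on all NTS arrays, with medians of 2.32, 1.69, 1.95, and 3.40 in NTS and of 0.83, 1.11, 0.09, and 1.15 in NTL. The pyrimidine probes had medians of 1.82, 1.49, 1.52, and 0.19 in NTS and of 3.92, 3.52, 4.24, and 3.42 in NTL. Of these 8 arrays, NTS replicate 4 was thus the highest for the first set and the lowest for the second. Among probes with 4 copies of AAG in any frame 5 of 74 were lower, and among those with CTT 1 of 3 was higher. For CAG the count was 1 lower of 14, and for CTG and GAT 0 of 7 and 0 of 12 were called. The transcripts that the repeat probes bind were not identified, so the values are those of the probes and not levels of the genes for which they are named.

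**Figure D4:**
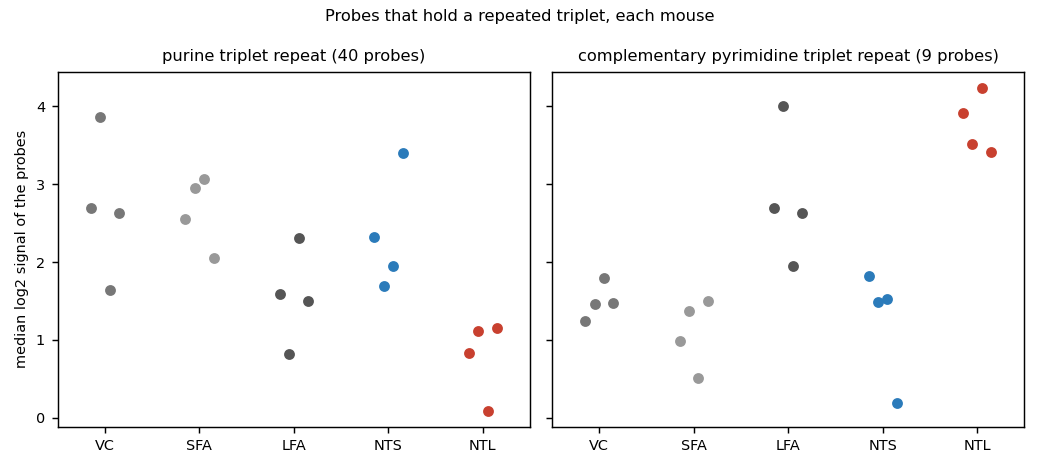
Median log2 level (y axis) of the 40 tested probes with 4 or more copies of the purine triplet in a row (left) and of the 9 with the complementary pyrimidine triplet (right), for each mouse of the 5 groups (x axis). The NTL arrays run from 0.09 to 1.15 on the left, below all NTS arrays and with 1 LFA array (0.82) among them, and from 3.42 to 4.24 on the right, above all NTS arrays and again with 1 LFA array (4.00) among them.

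The base composition of the probes moved with the change more broadly. The median log2 change was 0.25 in the 513 probes with at most 30% G and C, and it fell through each class to −0.69 in the 437 probes with over 60%. The higher probes had a median G and C content of 41.7% and the lower probes of 45%, against 43.3% in all tested probes. When the median of each class was set equal within every array, a step added after the data had been seen, 1748 probes were higher and 1022 lower, and 28 of the 40 purine repeat probes were still lower. Probes for long intergenic noncoding RNA were called higher in 153 (1.90%) and lower in 260 (3.22%) of 8070, with a median change of −0.45, and in 33 and 29 with slide as a block.

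Each nanotube group was also set beside the vehicle. NTS differed from VC in 0 probes in limma, with 1299 of the 36920 probes at an unadjusted p under 0.05, and NTL in 2511. Both comparisons use the same VC arrays, and each shares a group with that of NTL and NTS. For macrophage markers the median change from VC was 0.09 in NTS and 2.34 in NTL, for plasma cells −0.41 and 1.94, for mitosis −0.30 and 1.57, for collagens −0.29 and 0.95, and for oxidative phosphorylation −0.16 and −1.01. For the purine repeat probes it was −0.27 and −2.92.

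The asbestos groups gave a second comparison by length that shares no array with that of the nanotubes. LFA differed from SFA in 428 probes, 379 higher (1.03%) and 49 lower (0.133%). Among the 1164 genes higher in NTL, 1149 (98.7%) were also higher in LFA than in SFA on average, where 41.3% of all genes were, with a median of 0.98, and 196 were called. Of the 457 lower genes 431 (94.3%) were lower in LFA, where 58.7% of all genes were, and 8 were called. None of these genes was called in the opposite direction. The 204 genes called in the same direction in both comparisons were 95.3% of the 214 called for asbestos and 12.6% of the 1621 called for nanotubes.

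Calca was at 1.41, 3.65, −0.07, and 2.83 in LFA and between −3.29 and −2.54 in SFA, a change of 4.85 (limma adjusted p = 0.000653). List medians for LFA against SFA were 1.52 for macrophages with 6 of 15 genes called, 1.18 for plasma cells with 4 of 11, 0.89 for mitosis with 0 of 26, 0.36 for collagens with 0 of 19, and −0.67 for oxidative phosphorylation with 0 of 30. The purine repeat probes had a median of −1.96, with 20 of 40 called lower. Chil4, at least 7.43-fold higher in NTL than in NTS, changed by −0.05 in LFA against SFA (limma adjusted p = 0.989), and Hoxc9 by −0.19 (0.942). The difference of the length effects was tested directly as an interaction and was called in 0 probes by limma. Of the 36920 probes, 1278 had an unadjusted p under 0.05 in limma, and the smallest adjusted p was 0.9998. A difference between nanotubes and asbestos was thus not shown for any gene, and the asbestos dose was higher.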

How the data were processed

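RNA from the diaphragm of single mice was hybridized to Agilent 1-color arrays. Per the file headers, the authors scanned them with Feature Extraction 10.7.3.1, and the deposited intensity is the processed signal, background-subtracted, with probe positions in mm9. A second deposited table holds log2 values as group means only. It was used for the direction of named genes, and the authors' own comparisons were not used. Where the study set a 2-fold threshold with a test allowing unequal variances, that test was an alternative here.

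Control spots and outlier flags were left out, spots of one probe were averaged, and log2 signals were set relative to the 75th percentile of each array. Probes well above background on at least 4 of 20 arrays were tested with limma 3.58.1 in R 4.3.3, in one fit of all 5 groups, after a check on simulated data. A call needed a log2 change of 1 or more and a p, adjusted by Benjamini-Hochberg, under 0.05. A gene was represented by its brightest probe. Symbols were updated through RefSeq accessions, and 33187 probes had one. Where a group was not well above background on any array, the fold is a lower bound on the measured values, set against the dimmest signal well above background on each array. It makes no allowance for the error of the other group's mean, and other background corrections can give smaller changes. Slide and scan coincide. The number of arrays limits the precision.

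The gene lists and the genes named were chosen with earlier results of these data known. Named are the 12 higher and 8 lower genes with the largest change that were called with and without slide as a block and did not overlap, and genes the study follows. From each list up to 3 genes were named that were called without the block and did not overlap, with members needed to describe it. Il1b, Top2a, Cd3e, Cd4, Myh4, Ncam1, Mzb1, both gene clusters, and the genes of the pyrimidine repeat probes were added after their values were seen. The alternatives with the 5′ to 3′ signal index, with the probe base composition evened out, and without NTS replicates 3 and 4 were also chosen after seeing the data. Same-numbered arrays were not paired by the labels. Their deviations from the group means correlated at 0.35, −0.12, 0.26, and −0.21.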

Additional observations from a re-analysis of the deposited data

Results flagged for a closer look

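In 328 sets of 4 values (a gene or list in NTS or in NTL), 29 held an array whose gap to the nearest other array was too large a part of the whole range by Dixon's 95% criterion, which chance passes in about 1 in 20 sets. The ratio of the gap to the range follows each name.

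NTS replicate 4 stood above the other NTS mice for 4933405E24Rik (0.961) and Sox5 (0.885), and below them for BC051019 (0.840), U2af1l4 (0.907), and the mean of the dendritic cell list (0.843). All 4 of these genes are read by repeat probes. NTS replicate 3 was apart for Zmat3 (0.873, below) and Erbb3 (0.840, above), and NTS replicate 2 was below the others for the mean of the inflammatory cytokines (0.859).

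NTL replicate 3 was apart most often. It stood above the other NTL mice for Gpnmb (0.931), Pik3r5 (0.858), Actn3 (0.874), and the means of the fatty acid oxidation (0.983) and giant cell lists (0.862). It stood below them for Ccl17 (0.880), Calcb (0.888), Ncam1 (0.875), and the means of the collagens (0.874) and other matrix genes (0.888). NTL replicate 2 was above the others for Wt1 (0.891), Ccr4 (0.924), Tnfrsf17 (0.931), Icos (0.830), Clec4n (0.871), and the mean of the plasma cell list (0.927), and below them for LOC100505009 (0.857) and Nf2 (0.835). NTL replicate 1 was above the others for Hoxc9 (0.861) and below them for Cxcl13 (0.952), and NTL replicate 4 was above the others for the mean of the T cell list (0.843).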

How the results depend on the processing

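The count of 2797 probes called became 1786 when probes were averaged by gene, 769 with slide as a block, 4683 with the 5′ to 3′ index as a covariate, 1783 in a fit of NTS and NTL alone, 4698 without NTS replicates 3 and 4, and 399 with the test allowing unequal variances. Higher calls, 1817, became 1192 by gene, 675 with the slide block, 1006 with it and without NTS replicate 4, and 320 with unequal variances. Lower calls, 980, became 604 with quantile normalization, 594 by gene, 94 with the slide block, 491 with array brightness as a covariate, 2064 with the 5′ to 3′ index, 470 in the fit of both groups alone, 2911 without NTS replicates 3 and 4, and 79 with unequal variances. The slide-block count was 2797 without the block and 0 in the fit of both groups alone (4069 at an unadjusted p under 0.05 in limma). LFA against SFA, 428, gave 269 by gene and 173 in a fit of both groups alone. The causes were not tested.

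Leaving out 1 array gave 1717 to 5436 probes called (most without NTS replicate 4, fewest without NTL replicate 2), 1247 to 2136 higher, 405 to 3300 lower, 151 to 1950 with the slide block (fewest without NTL replicate 1), 155 to 531 for LFA against SFA, and 0 for the difference of length effects.

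With the replicate number as a block 2470 probes were called. The numbers did not pair the arrays, since 2 of the 4 NTL arrays correlated best with the NTS array of their own number.

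Of the 115 named genes, 104 were called, and 2534 of 2846 values under alternatives kept direction and call, 281 lost the call, 13 gained it, and 18 changed direction, all 18 in genes that were not called. Of the 281 lost calls, 70 came with the test allowing unequal variances, under which 45 genes kept direction and call. Another 31 came with slide as a block. With the 5′ to 3′ index Nf2 was at 0.15, Msln at −0.0093, Alb at −0.45, Ccl11 at −0.11, and Cd3e at 0.26. Msln was at −0.046 without NTS replicates 3 and 4, S100a8 at −0.35 with brightness as a covariate, and Clec4a4 at −0.17 with normexp. Normexp left smaller changes in dim genes that stayed called, among them 2.25 for Tff1, 1.99 for Fam162b, 1.73 for Olr1, 1.61 for Slfn4, 3.30 for LOC641221, 2.80 for Clec4e, 1.92 for Atp6v0d2, 1.77 for Il1b, 1.67 for Calcb, 1.49 for Pik3cg, 1.38 for Il1r2, 1.19 for Icos, 1.16 for Pbk, 1.12 for Chil4, and −1.31 for Pdzd9. Leaving out 1 array moved Nf2 from −0.40 to 0.12, Alb from −1.62 to 1.99, Ccl11 from −0.076 to 0.46, and Cd3e from −0.58 to 0.11. In the authors' table, which holds no replicates, all 115 kept their direction. That table holds group means of the same arrays, so this is no separate check, and these 115 values are among the 2534.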
